A study of Homo sapiens with 9 samples.

Results

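The 42 genes described here make and break glucose, gate pyruvate into the mitochondrion, or answer to low oxygen. They were listed by name, and each was read by the probe set annotated to it alone that had the highest mean log2 signal over all arrays. Of the 42, 41 had such a probe set, out of 19775 genes in the series. They were 30 of 30 sugar enzymes and transporters and 11 of 12 other hypoxia genes. The hypoxia gene without one, CA9, was not analysed here. RNA came from Huh7, a human hepatocarcinoma cell line, and was hybridised to 9 Affymetrix arrays with 1 colour. The DEGS1 group (n = 3) received siRNA against DEGS1, the desaturase that places the double bond of ceramide. The SPTLC123 group (n = 3) received siRNA against SPTLC1, SPTLC2 and SPTLC3, subunits of serine palmitoyltransferase, the first enzyme of sphingolipid synthesis. The scramble group (n = 3) received a control siRNA. All groups were transfected with lipid at a final 20 nM siRNA and grown in high-glucose medium, then given conditioned medium of reduced serum. The sample labels give a time of 72 h after transfection, but the protocol brings in the conditioned medium only at 72 h and harvests 24 h later, and the sources used here do not settle which holds. The labels call the samples biological replicates of this single line, and they name no low-oxygen treatment.

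Glycolysis splits glucose into pyruvate, and phosphofructokinase, whose subunits are PFKL, PFKM and PFKP, is its main control point. The PFKFB enzymes set the level of fructose 2,6-bisphosphate, the activator of phosphofructokinase, and the pyruvate dehydrogenase kinases (PDK1, PDK2 and PDK3 here) keep pyruvate out of the citric acid cycle. Liver cells also run the path backwards through PCK1, PCK2, FBP1 and G6PC1 and release glucose. In low oxygen the transcription factors HIF1A and EPAS1 escape hydroxylation by EGLN1 and EGLN3 and switch on many glycolytic genes together with targets such as VEGFA, ADM and BNIP3.

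Values are log2 of the deposited normalized intensity, so a difference of 1 is a doubling of signal. Differences are given ± SE from limma, fitted across all 19775 genes, and a gene was called at a Benjamini-Hochberg adjusted p under 0.05 over all of them. Levels of different probe sets are not comparable with each other. The targets that could be read, DEGS1, SPTLC1 and SPTLC2, were lower in the arrays labelled with their siRNA, while SPTLC3 has no probe set of its own here and was not analysed. DEGS1 read 5.19, 5.01 and 4.80 in DEGS1 arrays, against 8.84, 8.75 and 8.59 in scramble arrays. SPTLC1 read 8.53, 8.77 and 8.72 in SPTLC123 arrays, against 11.02, 10.83 and 10.98 in scramble arrays, and SPTLC2 read 4.87, 5.22 and 5.13 in SPTLC123 arrays, against 5.97, 6.13 and 6.25 in scramble arrays. All 7 measured hepatocyte markers were bright, with means from 11.21 to 14.31, where the median of all probe sets was 4.86. Of markers of other cells, 2 of 4 blood, 3 of 3 cholangiocyte, 1 of 3 endothelial and 1 of 4 stellate cell or fibroblast genes lay above that median on every array. Among them LYZ averaged 12.77, SOX9 11.0 and the endothelial marker PECAM1 7.61. The leukocyte marker PTPRC and the endothelial marker CDH5 averaged 3.54 and 3.14. In these bulk arrays, fewer cells with a transcript and less transcript per cell cannot be told apart.

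2 features of the arrays touch the results. In 3 arrays, DEGS1 replicates 2 and 3 and SPTLC123 replicate 3, the 3′ control probe set of actin exceeded the 5′ one by 1.31, 1.25 and 1.15 on the log2 scale, against 0.40 to 0.56 on the 6 others. The scramble arrays all belonged to those 6. Those 3 arrays lay below all the other 6 for PFKM, GAPDH, PGK1, PGAM1, ENO1 and ANKRD37, which is 14.6% of the members against 7.74% of all genes. Second, scramble replicate 2 stood above the other scramble arrays for many members. It was the highest scramble array for 28 of 41 members (68.3%, against 37.9% of all genes), by over 0.5 for 7 of them (17.1%, against 2.66% of all genes). PCK2 led with 1.44, followed by ALDOC with 1.14, BNIP3L with 1.08, PFKFB4 with 0.89, PDK1 with 0.85, PCK1 with 0.82 and ANKRD37 with 0.79. The part of either feature in the results was not tested. Values without the arrays concerned stand beside the member results they change most.

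**Figure D1:**
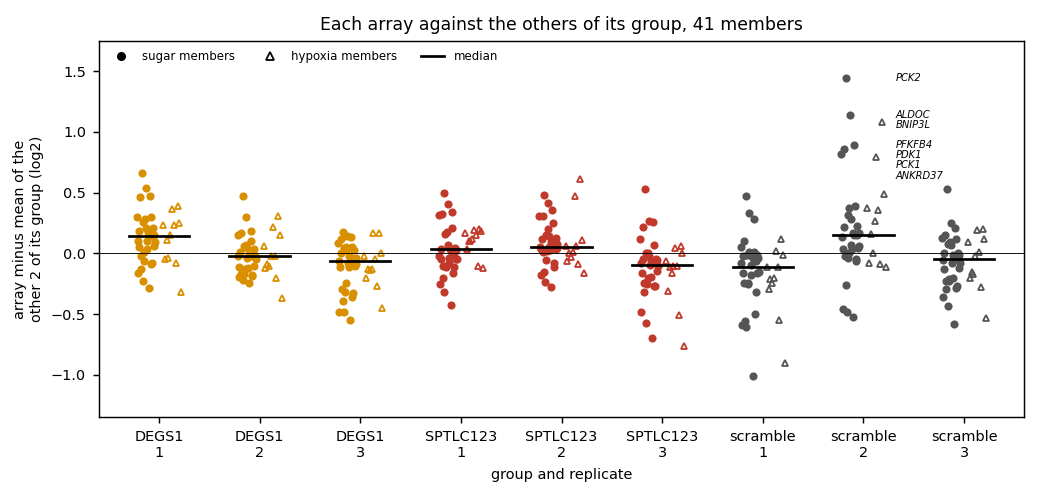
Each point is 1 of the 41 measured members, plotted as the log2 intensity on that array minus the mean of the other 2 arrays of its group (vertical axis), for each group and replicate (horizontal axis). Scramble replicate 2 has a median of 0.16 and 7 members above 0.5, whereas the median over all genes on that array is 0.01.

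Promoters of 4 members that were called and of LDHA are printed here with the core that hypoxia-inducible factors bind, ACGTG or GCGTG, in capitals on either strand. A match on the other strand appears as CACGT or CACGC, and the palindrome CACGTG counts as a match on each strand. Windows of 250 bases before to 50 after a RefSeq gene start (GRCh38.p14) were found for 36 members, 63 windows in all, since a gene can have several starts that overlap. ACGTG lay in 39.7% of the member windows and in 21.4% of all 35116 windows of the table, and GCGTG in 39.7% and 36.5%. Median GC content was 68.7% in the member windows and 58.7% in all. PDK1 and PKLR were lower than scramble in both knockdowns, EPAS1 and ADM differed between the knockdowns, and LDHA, which was not called, had the most ACGTG matches in a window. Where a gene has several windows, the one with most matches is shown, as the 250 bases before the start, 5′ to 3′ on the gene's strand. The other window of PDK1 and that of PKLR held neither core. PFKM, also called lower in both knockdowns, is not printed. Some of its windows held 1 ACGTG match and others no match. The PDK1 stretch is chr2:172555840-172556089 (plus strand), with ACGTG 17 and 8 bases before the start. The PKLR stretch is chr1:155301439-155301688 (minus strand), with CACGTG from 197 bases before it. The EPAS1 stretch is chr2:46297157-46297406 (plus), with GCGTG 117 bases before. The ADM stretch is chr11:10304823-10305072 (plus), with GCGTG 101 bases before. The LDHA stretch is chr11:18394313-18394562 (plus), with CACGTG from 185 and from 87 bases before and a further ACGTG match at 73. A match is a description of letters and not a shown binding site.
PDK1: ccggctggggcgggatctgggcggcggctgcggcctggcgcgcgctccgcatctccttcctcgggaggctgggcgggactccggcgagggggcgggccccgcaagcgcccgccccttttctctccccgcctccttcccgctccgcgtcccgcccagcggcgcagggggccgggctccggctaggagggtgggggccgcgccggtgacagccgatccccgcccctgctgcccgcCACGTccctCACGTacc
PKLR: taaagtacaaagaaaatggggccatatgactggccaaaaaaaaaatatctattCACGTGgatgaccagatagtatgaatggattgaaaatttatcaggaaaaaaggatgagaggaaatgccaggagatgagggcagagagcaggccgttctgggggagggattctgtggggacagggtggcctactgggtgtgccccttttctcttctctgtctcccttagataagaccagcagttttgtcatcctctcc
EPAS1: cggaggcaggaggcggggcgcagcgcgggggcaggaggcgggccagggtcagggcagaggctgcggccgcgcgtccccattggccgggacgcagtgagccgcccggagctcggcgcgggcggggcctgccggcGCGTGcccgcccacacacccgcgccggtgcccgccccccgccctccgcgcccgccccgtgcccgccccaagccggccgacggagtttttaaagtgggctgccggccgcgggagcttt
ADM: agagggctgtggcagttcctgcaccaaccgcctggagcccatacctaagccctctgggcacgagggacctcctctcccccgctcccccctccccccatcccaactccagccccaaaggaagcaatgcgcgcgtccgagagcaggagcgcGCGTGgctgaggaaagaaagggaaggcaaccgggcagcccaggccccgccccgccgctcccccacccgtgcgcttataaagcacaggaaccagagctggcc
LDHA: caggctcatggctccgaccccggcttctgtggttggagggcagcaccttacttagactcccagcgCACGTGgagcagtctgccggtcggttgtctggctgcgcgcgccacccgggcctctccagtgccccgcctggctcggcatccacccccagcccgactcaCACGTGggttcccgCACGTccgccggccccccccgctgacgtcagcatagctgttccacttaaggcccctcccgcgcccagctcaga

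In SPTLC123 cells, PDK1, PFKM, PKLR and PFKL were called lower than in scramble cells among the sugar genes, and PCK1, which commits oxaloacetate to gluconeogenesis, was called higher. Among the hypoxia genes, BNIP3L, EPAS1, ADM and HIF1A were called lower and none higher. That made 9 of 41 members called (22.0%), against 9.94% of all genes: 1 higher (all genes 5.31%) and 8 lower (all genes 4.63%). Among the 36 members whose mean was at or above the median of all probe sets, 25.0% were called, against 14.7% of all genes that bright. The sugar genes had 5 of 30 called (16.7%) with a median difference of -0.15, and the hypoxia genes 4 of 11 (36.4%) with a median of -0.31, beside a median of -0.03 over all genes. Of the members, 17 lay wholly below scramble on all arrays and 1 wholly above, against 15.4% and 13.5% of all genes (28.9% in either direction). Centring every array on its median raised the share of all called genes that were higher to 65.3%, against 53.5% as reported, and called 3 sugar genes.

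PDK1 had the largest difference among the sugar genes. It read 6.20, 6.63 and 6.10 in SPTLC123 arrays, against 7.11, 8.01 and 7.20 in scramble arrays. Every SPTLC123 array lay below every scramble array, and scramble replicate 2 was the brightest of the 9. The difference was -1.13 ± 0.24, leaving 45.6% of the scramble signal (limma, adjusted p = 0.0134), and without scramble replicate 2 it was -0.85, still called. PDK2 (0.16 ± 0.13) and PDK3 (-0.21 ± 0.10), the other kinases measured, were not called.

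The muscle-type phosphofructokinase PFKM read 8.92, 9.19 and 8.85 in SPTLC123 arrays, against 9.41, 9.78 and 9.52 in scramble arrays. The groups did not overlap, and the difference was -0.58 ± 0.13 (limma, adjusted p = 0.0175). The liver-type subunit PFKL was more even, at 8.09, 8.19 and 8.14 in SPTLC123 arrays, against 8.36, 8.57 and 8.47 in scramble arrays. PFKL also had no overlap, with a smaller difference of -0.33 ± 0.09 (adjusted p = 0.0408 by limma). PKLR, the pyruvate kinase of liver and red cells, was dim, with 5.25, 5.45 and 5.25 in SPTLC123 arrays, against 5.66, 6.04 and 5.64 in scramble arrays. All 3 SPTLC123 arrays again lay below the scramble arrays, by 0.46 on average (-0.46 ± 0.12, limma adjusted p = 0.0298).

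Most glycolytic enzymes differed little. Of 17, 16 were below scramble on average, against 55.5% of all genes, with a median difference of -0.22, and 3 were called lower (PFKL, PFKM and PKLR). Those that came nearest to a call were GPI, which isomerises glucose 6-phosphate (-0.36 ± 0.11, limma adjusted p = 0.0577), and LDHA, which turns pyruvate into lactate (-0.28 ± 0.09, limma adjusted p = 0.0691). LDHA read 13.33, 13.44 and 13.31 in SPTLC123 arrays, against 13.62, 13.66 and 13.63 in scramble arrays, so its groups did not overlap. GAPDH at -0.08 ± 0.08, ENO1 at -0.04 ± 0.10, PKM at -0.03 ± 0.12 and ALDOA at -0.08 ± 0.08 were among the brightest genes and lay near 0. HK1, HK2, TPI1, PGK1, PGAM1 and the wide-spread ALDOC (-0.70 ± 0.27, and -0.32 without scramble replicate 2) were not called either. PFKP, the platelet-type phosphofructokinase, was the only enzyme of the 17 with a positive difference (0.05) and, like ENO2 of neurons, was dim in every group, below the median of all probe sets. Without scramble replicate 2, 15 of 17 were below scramble with a median of -0.18, and none of the 17 was called at an adjusted p under 0.05 in limma.

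PCK1 was the only member called higher. Like PKLR it was dim, with a mean of 5.45 over all arrays, and it has no other probe set here. It read 6.39, 6.06 and 6.08 in SPTLC123 arrays, against 4.79, 5.73 and 5.03 in scramble arrays. The lowest SPTLC123 array was above the highest scramble array, which was replicate 2. The difference was 1.00 ± 0.21, or 2.0-fold (limma, adjusted p = 0.0134), and 1.27 without scramble replicate 2. The mitochondrial isoform PCK2 read 8.13, 8.37 and 8.52 in SPTLC123 arrays, against 8.27, 9.90 and 8.65 in scramble arrays, and was not called (-0.60 ± 0.32, and -0.12 without scramble replicate 2). FBP1 and G6PC1, the later steps of gluconeogenesis, were dim in every group and not called. The glucose transporters SLC2A1 (-0.29 ± 0.10, limma adjusted p = 0.0943), SLC2A2 of liver (0.02 ± 0.23) and the dim SLC2A3 (-0.11 ± 0.13) were not called, nor were PFKFB2, PFKFB3 and PFKFB4, whose differences ran from -0.53 to 0.24. The lowest of these, PFKFB4, was at -0.24 without scramble replicate 2.

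EPAS1, also called HIF-2 alpha, had the lowest adjusted p in limma among the hypoxia members. It read 11.04, 10.97 and 10.90 in SPTLC123 arrays, against 11.72, 11.73 and 11.74 in scramble arrays. The scramble arrays were nearly identical and lay well above all SPTLC123 arrays. The difference was -0.76 ± 0.09, leaving 59.0% of the signal (limma, adjusted p = 0.000329). HIF1A read 11.39, 11.24 and 11.15 in SPTLC123 arrays, against 11.64, 11.55 and 11.69 in scramble arrays, which did not overlap. Its difference was -0.37 ± 0.10, at the edge of the threshold (limma, adjusted p = 0.0497). These are transcript signals, whereas oxygen controls the factors mainly as proteins.

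BNIP3L, a receptor for the removal of mitochondria, read 8.69, 8.98 and 8.33 in SPTLC123 arrays, against 9.58, 10.67 and 9.59 in scramble arrays. Every SPTLC123 array was lower, and scramble replicate 2 was about 1 log2 unit above its group. The difference was -1.28 ± 0.27 (limma, adjusted p = 0.0131), and -0.92, still called, without scramble replicate 2. ADM, which encodes the vessel-dilating peptide adrenomedullin, read 8.30, 8.18 and 8.18 in SPTLC123 arrays, against 8.95, 8.98 and 8.69 in scramble arrays. Its groups stood apart, at -0.66 ± 0.12 (limma, adjusted p = 0.00551), and the call held under all 19 alternative settings. VEGFA, the vascular growth factor, was not called (-0.31 ± 0.12, limma adjusted p = 0.154), nor was NDRG1 (0.18 ± 0.13). BNIP3, EGLN1, EGLN3, KDM3A and ANKRD37 were not called either, the first 4 with differences between -0.15 and 0.04. ANKRD37 was at -0.58 ± 0.28, and at -0.32 without scramble replicate 2.

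Several of these calls lay near the threshold and did not survive the loss of an array. Over the 19 alternative settings PFKL ran from -0.38 to -0.28 and HIF1A from -0.43 to -0.31. PFKM ran from -0.69 to -0.48, PKLR from -0.53 to -0.29 and PDK1 from -1.30 to -0.775. BNIP3L ran from -1.46 to -0.92 and PCK1 from 0.75 to 1.27. Without SPTLC123 replicate 1, PFKL, PFKM, PKLR, PDK1, PCK1 and HIF1A lost their calls (limma adjusted p from 0.0560 to 0.132), and without SPTLC123 replicate 3, PFKL, PFKM, PKLR, PDK1, HIF1A and BNIP3L did (0.0518 to 0.153). Without scramble replicate 2, PFKL, PFKM, PKLR and HIF1A lost theirs (0.0694 to 0.131). PFKL and HIF1A were also lost without SPTLC123 replicate 2 (limma adjusted p = 0.0728 and 0.118) or scramble replicate 3 (0.101 and 0.149), HIF1A without scramble replicate 1 (0.118) and PCK1 without scramble replicate 3 (0.0575). PFKL and HIF1A also missed the threshold without DEGS1 replicate 2 (limma adjusted p = 0.0551 and 0.0547) or 3 (0.0595 and 0.0702), arrays that enter this comparison through the shared estimate of spread. Without the 3 arrays of weak 5′ actin signal, PCK1, ADM and EPAS1 kept their calls among the members, with 7.6% of all genes called. EPAS1 lost its call only when all its probe sets were averaged (limma adjusted p = 0.0679).

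In DEGS1 cells, fewer members were called: PDK1, PKLR and PFKM were lower than in scramble cells, VEGFA was lower, and NDRG1 was higher. That made 5 of 41 (12.2%), against 9.7% of all genes, with 1 higher (all genes 4.66%) and 4 lower (all genes 5.04%). Among the 36 members at or above the median of all probe sets, 13.9% were called, against 14.4% of all genes that bright, so the share was near the background. The sugar genes had 3 of 30 called (10.0%) and the hypoxia genes 2 of 11 (18.2%), with medians of -0.15 and -0.13 beside -0.01 over all genes. Wholly below scramble lay 12 members and wholly above 2, against 13.7% and 12.6% of all genes (26.3% in either direction). This comparison uses the same scramble arrays as the one for SPTLC123.

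PKLR read 5.06, 5.15 and 5.15 in DEGS1 arrays, against 5.66, 6.04 and 5.64 in scramble arrays. The DEGS1 arrays were close together and all below scramble, at -0.66 ± 0.12 (limma, adjusted p = 0.00606). PFKM read 9.18, 8.85 and 8.91 in DEGS1 arrays, against 9.41, 9.78 and 9.52 in scramble arrays. The groups did not overlap, at -0.59 ± 0.13 (limma, adjusted p = 0.0187), and the 2 lower DEGS1 arrays were those with weak 5′ actin signal. Without the 3 such arrays the PFKM difference was -0.39. PDK1 read 6.88, 6.49 and 6.20 in DEGS1 arrays, against 7.11, 8.01 and 7.20 in scramble arrays. Its groups did not overlap either, at -0.92 ± 0.24 (limma, adjusted p = 0.0382). The PDK1 difference was -0.63 without scramble replicate 2 and -0.56 without the 3 arrays of weak 5′ actin signal.

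PFKL lay on the other side of scramble from PFKM, at 8.66, 8.77 and 8.68 in DEGS1 arrays, against 8.36, 8.57 and 8.47 in scramble arrays. Every DEGS1 array was above every scramble array, but the difference of 0.24 ± 0.09 was not called (limma, adjusted p = 0.126). Of the 17 glycolytic enzymes, 15 were below scramble on average, against 53.0% of all genes, with a median of -0.15. PGK1, the first step that yields ATP, read 11.47, 10.91 and 10.71 in DEGS1 arrays, against 11.55, 11.96 and 11.63 in scramble arrays. PGAM1, the phosphoglycerate mutase, read 12.51, 12.09 and 12.01 in DEGS1 arrays, against 12.63, 12.67 and 12.62 in scramble arrays. Neither was called (-0.68 ± 0.21 and -0.43 ± 0.13, limma adjusted p = 0.0652 and 0.0690), and in both genes the 2 DEGS1 arrays with weak 5′ actin signal were the lowest, while DEGS1 replicate 1 lay closer to scramble. Without the 3 arrays of weak 5′ actin signal PGK1 was at -0.24 and PGAM1 at -0.12. PCK1 (-0.20 ± 0.21) and PCK2 (-0.25 ± 0.32) were not called, and without scramble replicate 2 they lay on the other side of 0, at 0.07 and 0.23.

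NDRG1, a stress-responsive gene that low oxygen induces, read 10.79, 11.10 and 11.11 in DEGS1 arrays, against 10.30, 10.68 and 10.34 in scramble arrays. All DEGS1 arrays were above scramble, at 0.56 ± 0.13, or 147% of its signal (limma, adjusted p = 0.0187). VEGFA read 9.41, 9.61 and 9.37 in DEGS1 arrays, against 9.76, 10.14 and 9.78 in scramble arrays. The groups did not overlap, at -0.43 ± 0.12 (limma, adjusted p = 0.0483). EPAS1 read 11.54, 11.42 and 11.35 in DEGS1 arrays, against 11.72, 11.73 and 11.74 in scramble arrays, all lower but not called (-0.29 ± 0.09, limma adjusted p = 0.0571). BNIP3L (-0.80 ± 0.27, limma adjusted p = 0.0958, and -0.44 without scramble replicate 2), ADM (-0.13 ± 0.12) and HIF1A (-0.06 ± 0.10) were not called.

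Without all 3 arrays of weak 5′ actin signal, 1 DEGS1 array was left, assumed to vary like the arrays of the other groups. In that fit none of the 41 members was called in limma, 2 had an unadjusted p under 0.05, and 1.31% of all genes were called, so the lost calls say little about the members. With the actin 3′ minus 5′ value as a covariate, PKLR alone stayed called among the members. Without DEGS1 replicate 2, PFKM, PDK1, NDRG1 and VEGFA lost their calls (limma adjusted p from 0.0677 to 0.123), and the same 4 did so without DEGS1 replicate 3 (0.0806 to 0.179) and without scramble replicate 3 (0.0550 to 0.0794). Without scramble replicate 2, PFKM, PDK1 and VEGFA did (0.0699 to 0.147), and without scramble replicate 1, NDRG1 and VEGFA (0.0647 and 0.0540). VEGFA kept its call in 3 of 19 alternative settings, and lost it also without DEGS1 replicate 1 (limma adjusted p = 0.0665) or SPTLC123 replicate 1, 2 or 3 (0.0622, 0.0627 and 0.0550), as did PDK1 without SPTLC123 replicate 1 (0.0563).

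**Figure D2:**
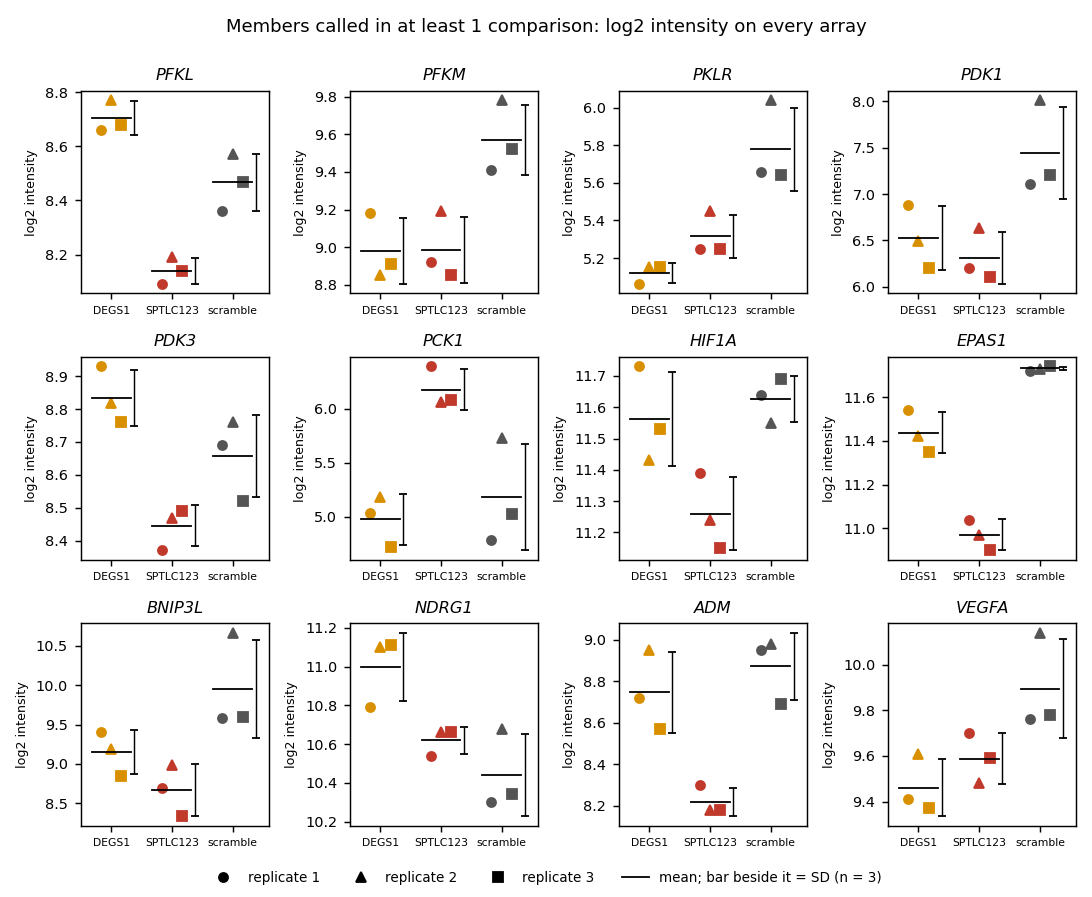
Log2 intensity (vertical axis) of the 12 members called in at least 1 comparison, by group (horizontal axis), with 1 point per array, a line at the mean and the SD beside it (n = 3 each). PDK1, PFKM and PKLR lie below scramble in both knockdowns, PCK1 is high in SPTLC123 arrays alone, and scramble replicate 2 (triangle) tops its group in PDK1, BNIP3L, PKLR and VEGFA.

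Set against each other, DEGS1 cells had higher PFKL, PDK3, EPAS1 and ADM than SPTLC123 cells, and lower PCK1. These were 5 of 41 members (12.2%), against 8.66% of all genes, 4 higher (all genes 3.7%) and 1 lower (all genes 4.96%). Among members at or above the median of all probe sets 13.9% were called, against 12.8% of all genes that bright. The 3 called sugar genes were 10.0% of 30 and the 2 called hypoxia genes 18.2% of 11. Wholly above SPTLC123 lay 6 members and wholly below 4, against 13.1% and 12.4% of all genes (25.5% in either direction). Centring every array on its median lowered the share of all called genes that were higher to 31.7%, against 42.7% as reported.

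PCK1 read 5.04, 5.18 and 4.72 in DEGS1 arrays, against 6.39, 6.06 and 6.08 in SPTLC123 arrays. The groups did not overlap, at -1.20 ± 0.21 (limma, adjusted p = 0.00595). PFKL was higher in DEGS1 arrays, with 8.66, 8.77 and 8.68, against 8.09, 8.19 and 8.14 in SPTLC123 arrays. It differed by 0.57 ± 0.09 (limma, adjusted p = 0.00292). PDK3 read 8.93, 8.82 and 8.76 in DEGS1 arrays, against 8.37, 8.47 and 8.49 in SPTLC123 arrays. The groups did not overlap, at 0.39 ± 0.10 (limma, adjusted p = 0.0287).

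EPAS1 was higher in DEGS1 than in SPTLC123 arrays by 0.47 ± 0.09 (limma, adjusted p = 0.00736), with all 3 DEGS1 arrays between the SPTLC123 and the scramble arrays. ADM read 8.72, 8.95 and 8.57 in DEGS1 arrays, against 8.30, 8.18 and 8.18 in SPTLC123 arrays, a difference of 0.53 ± 0.12 (limma, adjusted p = 0.0189). HIF1A (0.30 ± 0.10, adjusted p = 0.107) and NDRG1 (0.38 ± 0.13, adjusted p = 0.0934) did not pass in limma. PFKM differed by -0.01, with a 95% interval from -0.30 to 0.29, and PDK1 by 0.22 ± 0.24 (limma adjusted p = 0.660). Without the 3 arrays of weak 5′ actin signal, again with 1 DEGS1 array left, none of the 41 members was called in limma at 1.42% of all genes called, with 7 at an unadjusted p under 0.05. Without 1 array at a time, PCK1, PFKL and EPAS1 kept their calls. PDK3 lost its call without any 1 of DEGS1 replicates 1, 2 and 3 or SPTLC123 replicates 1 and 2 (limma adjusted p from 0.0527 to 0.122), and ADM lost its call without DEGS1 replicate 2 or SPTLC123 replicate 2 (0.0854 and 0.0712).

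**Figure D3:**
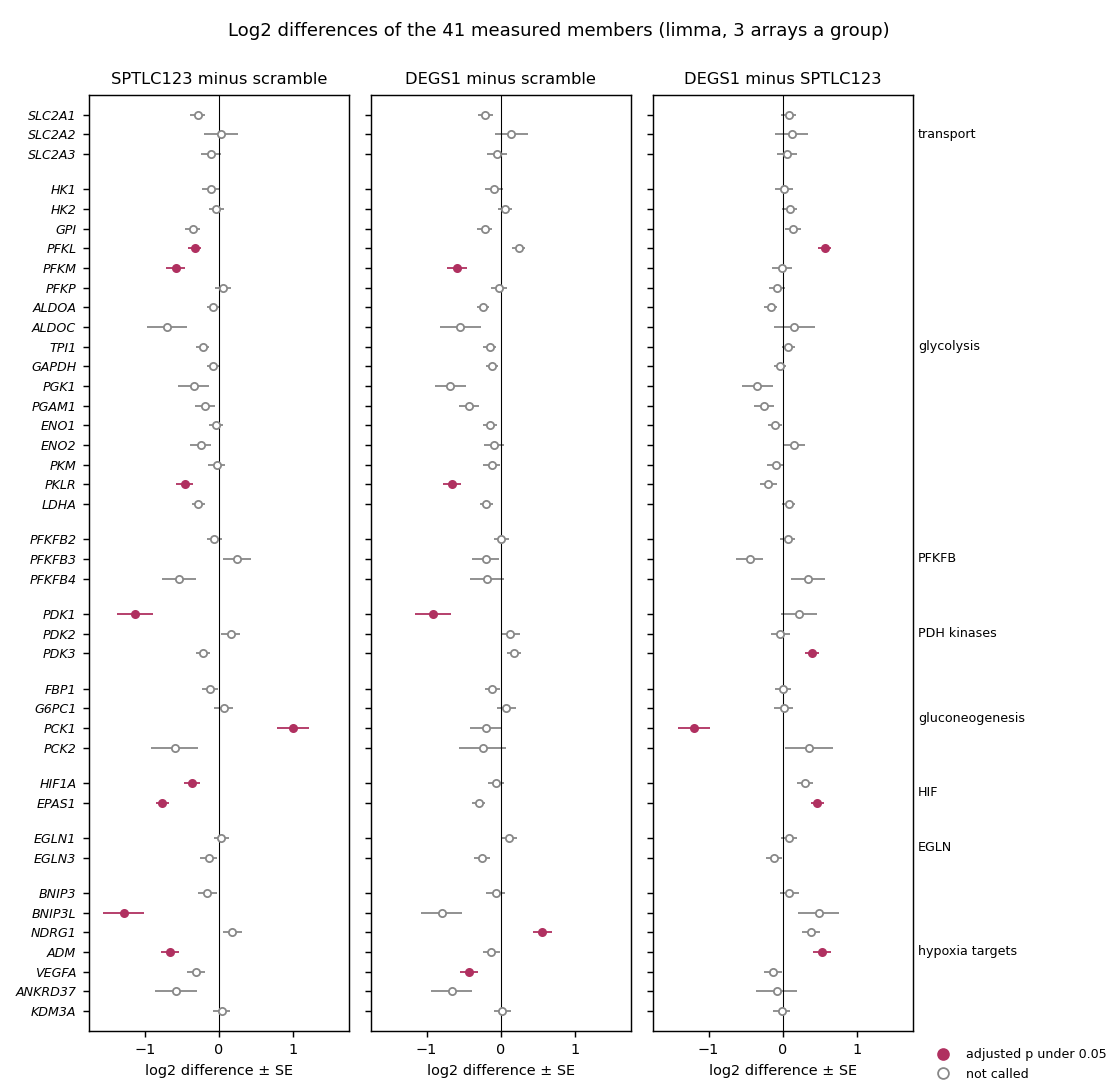
Log2 difference ± SE (horizontal axis) of each of the 41 measured members (vertical axis, grouped by role) in the 3 comparisons, with filled points at an adjusted p under 0.05 in limma (n = 3 arrays a group). Most glycolytic enzymes lie slightly left of 0 against scramble in both knockdowns, and few points are filled.

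Other probe sets of the same genes were set beside the ones used. Of 49 other probe sets of members, 31 had the sign of the chosen one for SPTLC123 against scramble, 30 for DEGS1 against scramble and 31 for DEGS1 against SPTLC123. BNIP3L, PFKL and PDK1 each had a second bright probe set near the first: for SPTLC123 against scramble they gave -1.39, -0.34 and -1.04. The other probe sets of PKLR gave smaller differences than the chosen one, -0.27 and -0.13 for SPTLC123 and -0.29 and -0.33 for DEGS1 against scramble, none of them called. Of the other probe sets of called members, 1 of 8 was itself called for SPTLC123 against scramble, 0 of 7 for DEGS1 against scramble and 1 of 7 for DEGS1 against SPTLC123, by limma over all probe sets. The sign of the chosen one was shared by 7 of 8, 6 of 7 and 5 of 7, in the same order of comparisons. The second bright probe set of EPAS1 gave -0.82 for SPTLC123 and -0.86 for DEGS1 against scramble, and -0.04 for DEGS1 against SPTLC123, where the chosen one gave 0.47, and it was not called in any comparison. The 5 probe sets of PDK3 disagreed, from -0.81 to 0.03 for SPTLC123 and from -0.70 to 0.69 for DEGS1 against scramble. HK2, the hexokinase of tumour cells, was near 0 by its bright probe set (-0.04 ± 0.10 for SPTLC123 against scramble) but 0.65 ± 0.13 by a dimmer one, which passed at an adjusted p of 0.0202 in limma over all probe sets. The same dimmer probe set gave 0.58 ± 0.13 for DEGS1 against scramble (limma adjusted p = 0.0392 over all probe sets).

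**Figure D4:**
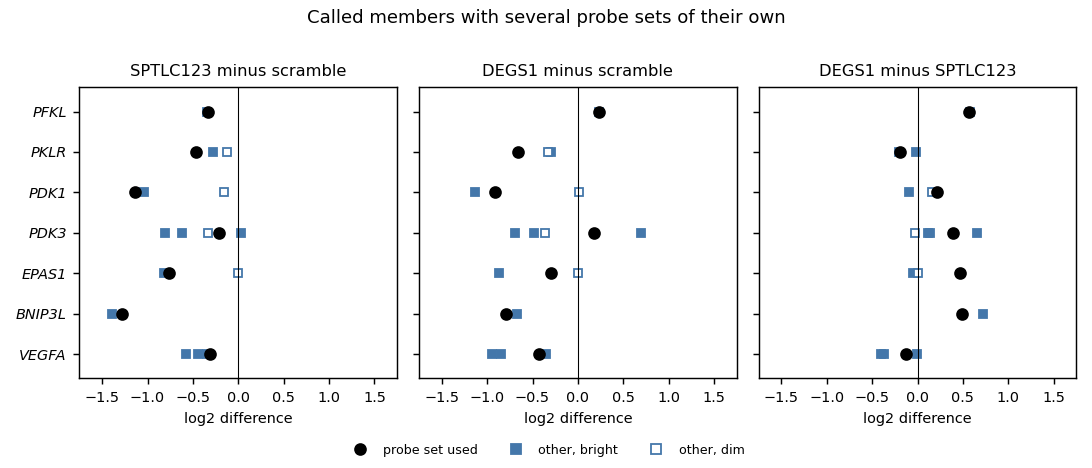
Log2 difference (horizontal axis) by each probe set of the called members that have several (vertical axis), for the 3 comparisons. Circles are the probe sets used, filled squares other probe sets brighter than the median of all probe sets and open squares dimmer ones. BNIP3L and PFKL probe sets fall together, whereas those of PDK3 spread on both sides of 0.

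Further genes of these pathways came from 2 lists beyond the members, 52 of 59 measured sugar genes and 42 of 45 measured hypoxia genes. For SPTLC123 against scramble, 4 sugar genes were called higher and 4 lower (15.4% in all), and 4 hypoxia genes higher and 6 lower (23.8%), against 9.94% of all genes (5.31% higher and 4.63% lower). PDHX, which anchors the E3 enzyme in the pyruvate dehydrogenase complex, stood far out. It read 7.31, 7.51 and 7.34 in SPTLC123 arrays, against 9.36, 9.51 and 9.55 in scramble arrays. All SPTLC123 arrays were lower by about 2 log2 units, at -2.09 ± 0.09 (limma, adjusted p = 8.99e-07), which leaves 23.6% of the signal. DEGS1 arrays read 9.24, 9.17 and 9.15 and lay just below scramble, and PDHX has no other probe set here. DLAT, the E2 enzyme of the same complex (-0.73 ± 0.17), the mitochondrial pyruvate carrier MPC1 (-0.46 ± 0.10) and the glucokinase inhibitor GCKR (-0.52 ± 0.11) were also called lower. The glycogen phosphorylase PYGB (0.59 ± 0.11) and the transporter SLC2A8 (0.57 ± 0.14) were called higher. Among hypoxia genes, the oxidase ERO1A (-1.17 ± 0.09), the collagen hydroxylase P4HA1 (-1.16 ± 0.21) and the collagen cross-linker LOX (-0.89 ± 0.17) were called lower, although a second P4HA1 probe set had the opposite sign. In scramble arrays P4HA1 read 10.68, 11.36 and 10.66, and LOX 11.99, 12.42 and 11.81. Scramble replicate 2 exceeded the mean of the other scramble arrays by over 0.5 for 16.7% of these hypoxia genes and 3.85% of these sugar genes, against 2.66% of all genes. Values without that array are not given for these further genes. EDN1, which encodes endothelin (1.24 ± 0.20), the Notch factor RBPJ (1.20 ± 0.14) and WSB1 (0.72 ± 0.13) were called higher, with probe sets of both signs for EDN1 and WSB1.

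For DEGS1 against scramble, 4 of these sugar genes were called higher and 8 lower (23.1%), and 5 hypoxia genes higher and 8 lower (31.0%), against 9.7% of all genes (4.66% higher and 5.04% lower). The aminotransferase GOT1 (-0.95 ± 0.15), RPIA of the pentose phosphate path (-0.71 ± 0.10) and GCKR (-0.55 ± 0.11) were lower, while the pyruvate dehydrogenase phosphatase PDP1 (0.66 ± 0.11), PYGB (0.64 ± 0.11) and the glycogen-targeting subunit PPP1R3B (0.55 ± 0.09) were higher. Both other probe sets of PPP1R3B had the opposite sign. Among hypoxia genes, TMEM45A (-1.83 ± 0.35), the repressor BHLHE40 (-1.28 ± 0.23), KLF10 (-1.14 ± 0.16) and CITED2, which competes with HIF1A for its coactivator (-0.79 ± 0.16), were lower, and RBPJ (1.26 ± 0.14) and WSB1 (0.93 ± 0.13) higher. TMEM45A read 6.70, 4.85 and 5.56 in DEGS1 arrays, against 7.43, 7.79 and 7.36 in scramble arrays. Its 2 lower DEGS1 arrays were those with weak 5′ actin signal. In scramble arrays BHLHE40 read 8.59, 9.64 and 8.84, and CITED2 9.72, 10.25 and 9.86, with replicate 2 the highest. For DEGS1 against SPTLC123, 3 sugar genes were called higher and 2 lower (9.62%), and 3 hypoxia genes higher and 1 lower (9.52%), close to the 8.66% of all genes. PDHX (1.80 ± 0.09), PC, the pyruvate carboxylase (0.53 ± 0.11), and the glucose 6-phosphate transporter SLC37A4 (0.41 ± 0.10) were higher in DEGS1 cells, and RPIA (-0.85 ± 0.10) and LDHB (-0.57 ± 0.15) lower. Of the hypoxia genes, ERO1A (0.80 ± 0.09), ZNF395 (0.75 ± 0.11) and HILPDA, a lipid droplet protein (0.51 ± 0.13), were higher, and KLF10 (-1.21 ± 0.16) was lower. The other probe sets of ERO1A had both signs in this comparison, at -0.23 and 0.38, and those of ZNF395 gave 0.42 and 0.00.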

How the data were processed

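Normalized intensity, 1 value per probe set and array on a linear scale, was used as deposited by the authors. RMA is listed in the submitters' processing notes beside GCRMA (2.12.1) and limma (2.14.7), and which of RMA and GCRMA made the values is not given in the sources used here. Array medians ran from 27.92 to 30.0, so no further normalization was applied, and log2 was taken with no offset. Arrays have no read depth, and their number (3 a group) limits the precision. Of 54613 probe sets without controls, 41091 had 1 gene symbol, 1801 several and 11721 none listed. Each of 19775 genes was read by its brightest such probe set, with names checked against RefSeq gene numbers. All 9 arrays entered 1 fit (limma 3.58.1, lmFit and eBayes, two-sided, R 4.3.3). Alternatives were another offset, scaling, probe-set rule, filter, variance model, replicate block, actin covariate and arrays left out.

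The members and the further lists were chosen with earlier results of these data known, so none of them is independent evidence of a direction. Named were all members, with every array given for called ones, and up to 6 called genes per further list and comparison by adjusted p.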

Additional observations from a re-analysis of the deposited data

How the results depend on the processing

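All 19 member calls kept their direction under all 19 alternative settings, and the call itself held in 267 of 361 cases. Direction could not change where only the variance model, the replicate block, the genes filtered or the groups fitted differed. The same held where the array left out belonged to the group outside the comparison. Those cases say nothing about direction. For SPTLC123 against scramble, the 5 sugar calls became 8 with an offset of 16 before log2, 3 with median centring and 1 without the 3 arrays of weak 5′ actin signal (4 hypoxia calls became 2 there). For DEGS1 against scramble, the 3 sugar calls became 1 with the actin covariate, 5 with a variance trend and robust eBayes, and 0 without those 3 arrays, where 1 sugar gene had an unadjusted p under 0.05. The 2 hypoxia calls became 1 with all probe sets of a gene averaged, 1 with the 2 groups alone, 1 with quantile normalization, 0 with the actin covariate (3 at an unadjusted p under 0.05) and 0 without the 3 arrays (1 at an unadjusted p under 0.05). For DEGS1 against SPTLC123, the 3 sugar and 2 hypoxia calls became 0 and 0 without the 3 arrays (4 and 3 at an unadjusted p under 0.05), and the hypoxia calls 1 with all probe sets of a gene averaged. Leaving out 1 replicate at a time gave 0 to 6 sugar and 2 to 4 hypoxia calls for SPTLC123 against scramble. It gave 1 to 5 and 0 to 2 for DEGS1 against scramble, and 2 to 3 and 1 to 3 for DEGS1 against SPTLC123. The share of all genes called moved too under these losses, from 5.96% to 12.0%, from 4.05% to 18.3% and from 4.25% to 14.7% in the same order of comparisons. All of these counts are from limma. Fewer arrays were fitted wherever arrays were left out, and otherwise the cause was not tested.

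Replicate numbers are shared between groups, and the deviations of same-numbered arrays correlated with r from -0.28 to 0.54. The highest were 0.54 for replicate 3 and 0.40 for replicate 1, both between SPTLC123 and DEGS1 arrays. Both arrays of that replicate 3 pair had weak 5′ actin signal, and neither array of the replicate 1 pair did. For replicate 2 of these groups, where the DEGS1 array alone had it, r was -0.28. Correlations between arrays of different numbers are not given here. Whether same-numbered arrays share more than a number was not tested. With the replicate block, 5 sugar genes were called for DEGS1 against scramble, against 3 without it, while the share of all genes called went to 11.0%, against 9.7% without it. Among the hypoxia genes BNIP3L was called lower there (limma adjusted p = 0.0318), while VEGFA lost its call. Many probe sets lie near background, where differences are compressed.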
